A study of Mus musculus with 3 samples.

Results

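The genes described here are 10 transcription regulators of naive and memory T cell identity, out of 50600 genes in the count tables. They are Tcf7 and Lef1, which encode the factors TCF1 and LEF1, the E protein genes Tcf3 and Tcf12, their inhibitors Id2 and Id3, and Bach2, Satb1, Myb and Zeb1. They were taken by symbol from a fixed list, and each matched 1 gene of the tables. No measured value was a criterion of the choice, but the choice was made with earlier results of these data known. The data are 3 RNA-seq libraries from T-helper 1 (Th1) cells of the mouse, primary CD4 helper T cells of strain C57BL/6NJ that are known for making interferon-gamma. The labels give 3 biological replicates with a biosample each and 1 donor entry for all, and link a protocol for differentiating CD4+ T cells. No label gives a treatment, genotype or age, and the file headers name a time of 2 hours without saying what it is counted from. There is 1 group, so the values below are levels, ratios within a library and differences between replicates. Nothing says that the cultures came from separate animals, so the spread between replicates may be technical. In a bulk sample, fewer cells of a kind and less RNA per cell cannot be told apart.

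TCF1 and LEF1 are closely related HMG-box proteins that bind the same DNA motif. They act with beta-catenin in Wnt signalling or with TLE corepressors, and both are known to be high in naive and memory T cells and lower in effector cells. E proteins are basic helix-loop-helix factors that bind E-box motifs as dimers. Id proteins have the helix-loop-helix but no basic region, so a dimer of an Id and an E protein does not bind DNA. BACH2 is a bZIP repressor that restrains effector genes, SATB1 organises chromatin in developing and naive T cells, MYB is needed in T cell precursors and long-lived T cells, and ZEB1 is a zinc finger repressor.

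The values are read pair counts over exons. Counts were put on a scale that corrects for gene length, TPM (counts per exon base, scaled to the same total in each library). Total counts were 4442901, 3123869 and 2950658 in replicates 1, 2 and 3, so a gene without counts may lie at up to 0.675, 0.96 and 1.02 CPM (counts scaled to the library total in the same way, with no length) by counting error alone (limit of 3 counts). The authors counted pairs with strand setting 1, which keeps a pair for a gene only if read 1 has the orientation of that gene. The strand orientation of the library kit is not given in the sources used here. Under a kit of the other orientation, the counts of a factor would be of reads from the strand opposite to its mRNA, and its own reads would be listed under any gene annotated there. Every level below holds for strand setting 1 only. In the 1469 pairs of a protein-coding and a noncoding gene with shared exon bases described below, the noncoding gene was the higher per base in 79.8%. The orientation of the kit was not tested.

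The orientation of the kit bears on the levels of all 10 factors. In 5 of the 10, Lef1, Bach2, Satb1, Myb and Zeb1, exons also share bases with exons of a gene on the other strand. The same held for 8189 of all 50600 genes, or 16.2%, which were not matched to the factors for exon length. Gm43352 is a single exon of 3065 bases that runs across the start of Lef1 and shares 1208 bases with it, 13.7% of the exon bases of Lef1. Of these, 207 are annotated as coding and 1001 as untranslated in GENCODE M21. Bach2os shares 537 bases with Bach2, all of them coding and 5.4% of its exons. Gm26577 shares 559 bases with Myb, 6.26% of its exons, and 491 of these bases are coding. Gm6934 shares 128 untranslated bases with Satb1, 0.673% of its exons, and Gm10125 shares 198 bases with Zeb1, 1.96%. Tcf7 has A630014C17Rik on its other strand with no shared exon base, Tcf12 has Gm18821, Gm27152, Gm27450 and Rpl15-ps2 within its introns, each with 5 counts or fewer in any library, and Id2, Id3 and Tcf3 have none.

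**Figure D1:**
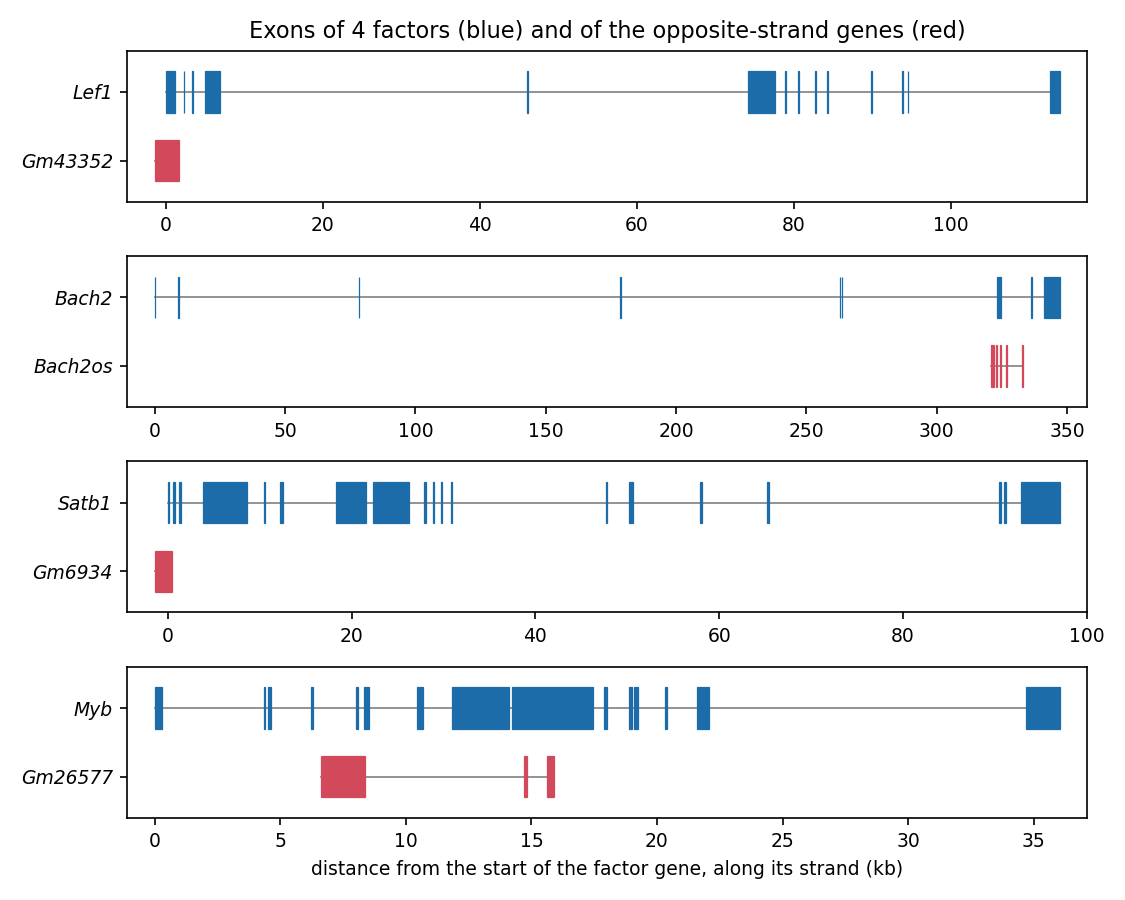
Exons (boxes) of Lef1, Bach2, Satb1 and Myb in blue and of the gene on the other strand in red, by distance in kb from the start of the factor gene along its own strand. Gm43352 and Gm6934 cross the starts of Lef1 and Satb1, while Bach2os and Gm26577 lie inside Bach2 and Myb.

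One coding stretch of Lef1, Bach2 and Myb that lies under an exon of the other strand is shown here, because a read pair within it is told apart by strand alone. Each is written 5′ to 3′ on the strand of the factor, from the GENCODE M21 transcripts on mm10. The Lef1 stretch is chr3:131111472-131111678 on the plus strand, the whole coding part of its first exon, and the capitals mark its start codon. For Bach2 it is the first 240 of 305 bases of a stretch, chr4:32563063-32563302 on the plus strand. For Myb it is 232 bases, chr10:21145094-21145325 on the minus strand. The remaining shared coding bases of Bach2 and Myb are not shown.
Lef1: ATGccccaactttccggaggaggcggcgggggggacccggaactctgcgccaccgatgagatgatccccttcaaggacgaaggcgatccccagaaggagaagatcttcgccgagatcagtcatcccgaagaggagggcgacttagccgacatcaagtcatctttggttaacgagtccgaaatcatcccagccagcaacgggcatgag
Bach2: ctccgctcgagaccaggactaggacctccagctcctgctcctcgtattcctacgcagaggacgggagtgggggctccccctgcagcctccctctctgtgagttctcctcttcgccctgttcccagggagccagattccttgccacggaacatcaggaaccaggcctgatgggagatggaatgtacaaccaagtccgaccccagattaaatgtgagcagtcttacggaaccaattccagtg
Myb: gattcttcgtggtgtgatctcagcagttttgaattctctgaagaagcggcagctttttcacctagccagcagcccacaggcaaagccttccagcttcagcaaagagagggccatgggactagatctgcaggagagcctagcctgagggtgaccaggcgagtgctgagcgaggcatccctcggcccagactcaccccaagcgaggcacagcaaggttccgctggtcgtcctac

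At Lef1 and Satb1 the overlap includes the promoter. The RefSeq table of GRCm38.p6, the assembly also called mm10, gives windows from 250 bases before to 50 after a transcription start, and 9 of the 10 factors have 1 or more there, 19 windows in all. Of these windows 3 lie wholly inside an exon of the opposite gene. One window of Lef1, chr3:131110073-131110372 on the plus strand, lies inside Gm43352, and the window at the Satb1 start, chr17:51833241-51833540 on the minus strand, inside Gm6934. The capitals mark E-box letters, CANNTG, the motif that E proteins bind, which reads the same pattern on both strands.
Lef1 promoter: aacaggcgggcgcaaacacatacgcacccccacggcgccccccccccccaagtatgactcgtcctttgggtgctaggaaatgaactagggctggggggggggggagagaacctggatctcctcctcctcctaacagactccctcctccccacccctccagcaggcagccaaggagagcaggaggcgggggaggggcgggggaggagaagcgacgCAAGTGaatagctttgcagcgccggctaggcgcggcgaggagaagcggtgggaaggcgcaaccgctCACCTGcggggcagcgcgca
Satb1 promoter: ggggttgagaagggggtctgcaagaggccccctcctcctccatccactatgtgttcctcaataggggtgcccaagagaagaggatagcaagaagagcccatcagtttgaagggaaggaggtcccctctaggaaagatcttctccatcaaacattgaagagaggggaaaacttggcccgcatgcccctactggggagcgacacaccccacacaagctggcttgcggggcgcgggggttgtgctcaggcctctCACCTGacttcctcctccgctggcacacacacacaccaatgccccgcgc

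Such letters occur in 16 of the 19 windows of the factors and in 72.3% of all 32851 windows of the table, so their presence is common. The TCF core CTTTGA, searched on both strands, occurs in 2 of the 19 and in 16% of all windows. A match of letters is a description and does not show binding.

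All 10 factors reached 1 TPM in every library, against 21.8% of all genes and 38.7% of protein-coding genes. Their median of mean levels was 16.9 TPM, against 0.297 TPM for protein-coding genes. Levels are relative to the genes that make up the total: with only genes free of exons on the other strand, plus the factors, in that total, the mean of Tcf7 became 458 TPM instead of 117, of Lef1 94.2 instead of 22.9 and of Tcf12 19.8 instead of 4.95.

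TCF1 and LEF1 stood apart in level. Tcf7 (chromosome 11, 52252371 to 52283014, minus strand) had 1014, 353 and 456 counts in replicates 1, 2 and 3. This gave 177, 71.7 and 102 TPM, a mean of 117 ± 53.9 (SD, n = 3), above 97.3% of protein-coding genes. It was the highest of the 10 in every library, and replicate 1 was well above the others. Lef1 (chromosome 3, 131110471 to 131224356, plus strand) had 533, 324 and 319 counts, or 27.7, 19.7 and 21.4 TPM, with a mean of 22.9 ± 4.24. Replicate 1 was the highest for Lef1 too, with a counting interval of 25.4 to 30.2 TPM. The intervals were 17.6 to 21.9 in replicate 2 and 19.1 to 23.9 in replicate 3. The highest value of Lef1 lay below the lowest of Tcf7. Within a library the log2 ratio of Tcf7 to Lef1 per exon base was 2.67, 1.87 and 2.26, a mean of 2.27 ± 0.40 (SD, n = 3) or 4.81-fold. Without the length correction the mean log2 ratio was 0.52, so the size of the difference rests largely on that correction. The ratio of the summed counts was 5.19 per exon base with a 95% counting interval of 4.82 to 5.59.

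Of the Id genes, Id3 was the higher in each library and the one that differed most between libraries. Id3 (chromosome 4, 136143497 to 136145755, plus strand) had 161, 46 and 111 counts, or 41.1, 13.7 and 36.5 TPM, with a mean of 30.4 ± 14.7. Replicate 2 stood apart below, with a counting interval of 10.02 to 18.3 TPM. Id2 (chromosome 12, 25093801 to 25096092, minus strand) had the fewest counts of the 10, 60, 23 and 31, or 21.6, 9.65 and 14.4 TPM, a mean of 15.2 ± 6.01. Its interval in replicate 2 was 6.12 to 14.5 TPM. Id2 is known to rise in effector cells and Id3 to mark naive and memory cells, and the log2 ratio of Id2 to Id3 was -0.92, -0.49 and -1.33, a mean of -0.91 ± 0.42. The summed counts put Id2 at 0.506 of Id3 per exon base (interval 0.405 to 0.628). Tcf7 exceeded Id2 by a log2 ratio of 3.02, 2.86 and 2.81, a mean of 2.90 ± 0.11 that varied little between libraries. No gene lies on the other strand of either Id gene.

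The E protein genes were lower than the Id genes per exon base. Tcf3, the gene of E2A (chromosome 10, 80409514 to 80433647, minus strand), had 121, 62 and 62 counts, or 13.7, 8.18 and 9.04 TPM, a mean of 10.3 ± 2.96. Tcf12, the gene of HEB (chromosome 9, 71842688 to 72111871, minus strand), had 234, 113 and 108 counts, or 6.89, 3.88 and 4.1 TPM, a mean of 4.95 ± 1.68, the lowest level of the 10. The log2 ratio of Tcf3 to Tcf12 was 0.99, 1.08 and 1.15, the ratio with the smallest spread between libraries of the 8 formed, at 1.07 ± 0.08 (SD, n = 3). Without the length correction its mean was -0.87, so its direction rests on that correction. The summed level of Tcf3 and Tcf12 lay below that of Id2 and Id3 by a log2 ratio of -1.61, -0.96 and -1.95. The mean was -1.51 ± 0.50, so the counts of the Id genes were 2.85-fold higher per exon base. This direction rests on the length correction too: Tcf12 has 15529 exon bases and Id2 1270, and without that correction the mean log2 ratio was 0.76. No exon of these 4 genes lies under an exon of the other strand.

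Satb1 had the most counts of the 10. It lies on chromosome 17 (51736187 to 51833290, minus strand) and had 2925, 1374 and 1341 counts, or 70.2, 38.5 and 41.5 TPM, a mean of 50.1 ± 17.5. Gm36931, a gene of its own strand, shares 156 exon bases with it and had 19, 11 and 4 counts. Bach2 (chromosome 4, 32238804 to 32586108, plus strand) had 381, 235 and 185 counts, or 17.5, 12.6 and 10.96 TPM, a mean of 13.7 ± 3.41. Its relative Bach1, a repressor of haem and oxidative stress genes, had 404, 152 and 190 counts and was somewhat higher per exon base, with a log2 ratio of Bach2 to Bach1 of -0.77, -0.06 and -0.72. The mean was -0.52 ± 0.40, and without the length correction it was 0.17.

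Myb and Zeb1 each stood far above a close relative. Myb (chromosome 10, 21124935 to 21160984, minus strand) had 208, 99 and 123 counts, or 10.6, 5.91 and 8.11 TPM, a mean of 8.22 ± 2.37. Mybl2, a MYB relative of dividing cells, had 0, 2 and 5 counts, and the summed counts gave a Myb to Mybl2 ratio of 31.9 per exon base (interval 15.3 to 79.7). That value rests on few counts: the mean log2 ratio over libraries was 5.22, but 3.95 without replicate 1 and 6.06 without replicate 3. Zeb1 (chromosome 18, 5591860 to 5775467, plus strand) had 487, 338 and 279 counts, or 22.0, 17.8 and 16.3 TPM, a mean of 18.7 ± 2.98. Zeb2, a relative known from terminal effector cells, had 6, 3 and 2 counts, and Zeb1 exceeded it 198-fold per exon base over the summed counts (interval 110.2 to 398). Zeb2 is itself a gene with exons under exons of the other strand.

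**Figure D2:**
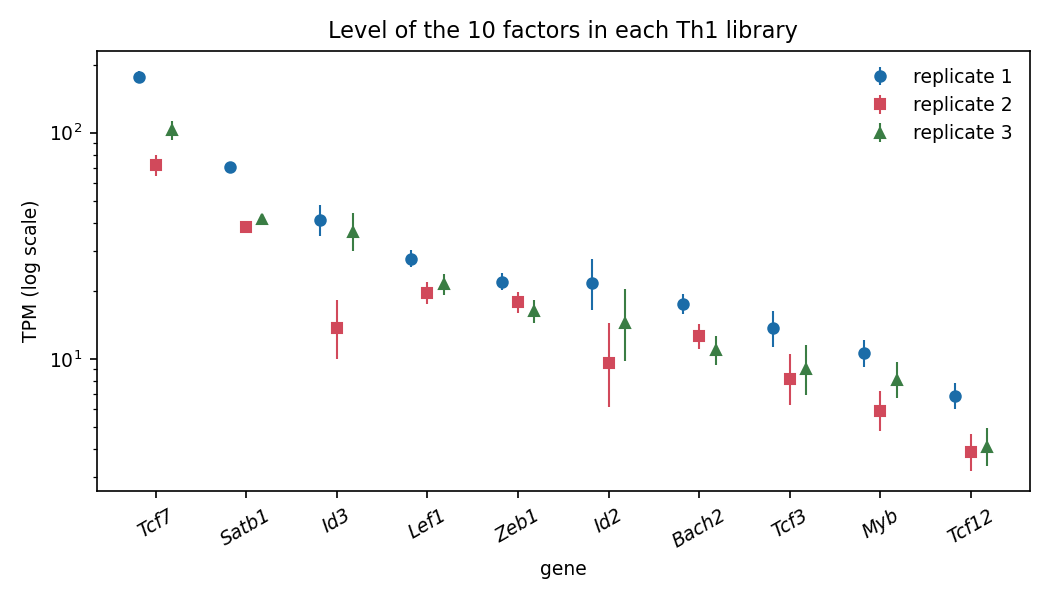
TPM (log axis) of the 10 factors in replicates 1, 2 and 3, ordered by mean log2 TPM, with bars for the 95% Poisson interval of the count. Replicate 1 was the highest for every factor on this scale, and replicate 2 of Id3 lay apart from the other libraries.

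**Figure D3:**
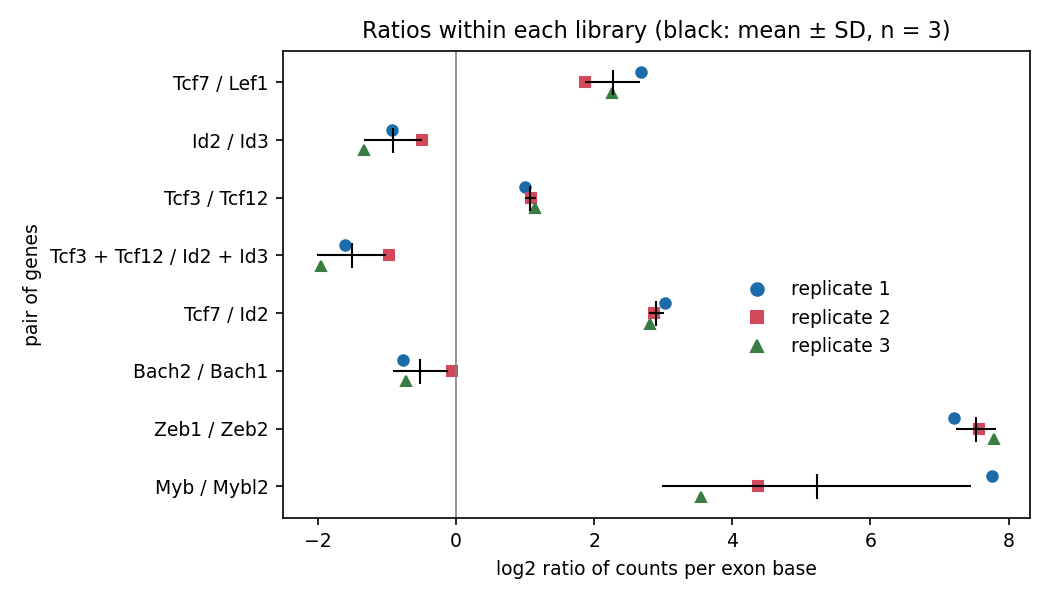
Log2 ratios of counts per exon base within each library for 8 pairs of genes, with the mean and SD over 3 libraries in black. Each pair kept 1 sign in all 3 libraries, and Myb to Mybl2 had the widest spread, with no count of Mybl2 in replicate 1.

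The order of levels by mean log2 TPM was Tcf7, Satb1, Id3, Lef1, Zeb1, Id2, Bach2, Tcf3, Myb and Tcf12. Of the 9 neighbouring pairs, 3 differed on average by less than the SD of their difference over the libraries. These were Id3 over Lef1, at a log2 difference of 0.28 ± 0.69, Zeb1 over Id2, at 0.34 ± 0.45, and Id2 over Bach2, at 0.12 ± 0.42. The difference of Id3 and Lef1 changed sign in replicate 2, at -0.51, as did that of Id2 and Bach2, at -0.36. The largest step was Tcf7 over Satb1, at 1.18 ± 0.24, and it was above 0 in all 3 libraries. The order rests on exon length: without the length correction the mean log2 difference turned to -1.68 for Tcf7 over Satb1, -2.02 for Id3 over Lef1, -2.85 for Id2 over Bach2, -0.81 for Tcf3 over Myb and -0.058 for Myb over Tcf12. No pair could pass a threshold of 0.05, since the exact two-sided sign-flip test on 3 libraries gives at best p = 0.25. That was the p of 7 of the 9 neighbouring pairs (adjusted p = 0.321) and of all 8 ratios between paired factors (adjusted p = 0.25). Id3 over Lef1 had p = 0.5 and Id2 over Bach2 p = 0.75 in the same exact test.

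How the factors differed between replicates depended on the scale used. All 10 had their highest TPM in replicate 1, as did 70.9% of the 9469 genes kept for the edgeR fit. Summed over the 10, the level was 408, 202 and 265 TPM. TPM divides by the sum over all genes. Genes with exons under exons of the other strand, 16.2% of all genes, took 55.1%, 69.1% and 67.3% of counts in replicates 1, 2 and 3. The TMM method of edgeR, which scales by the bulk of genes, shifted TPM by -0.40, 0.24 and 0.16 on the log2 scale in the 3 libraries. On that scale 5 of 10 factors were highest in replicate 1 (42.4% of genes), 2 in replicate 2 and 3 in replicate 3. Lowest in replicate 2 were 6 of 10 (36.2% of genes).

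After TMM scaling the coefficient of variation of the factors ran from 3.36% for Tcf3 to 42.3% for Id3, with a median of 11.01% against 22.9% for all genes of the fit. Those genes were not matched to the factors for level or for overlap with the other strand. Id3 had 30.8, 16.1 and 40.6 TMM-scaled CPM, a 2.52-fold range with replicate 2 the lowest. Tcf7 had 194, 123 and 167, a 1.57-fold range, and Id2 11.5, 8.04 and 11.3. Replicate 2 was the lowest of each of these 3. Lef1, at 102, 113 and 117, and Zeb1, at 93.2, 118 and 102, were instead lowest in replicate 1, where their TPM was highest. The other 5 factors ranged over 1.30-fold or less.

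None of the 10 varied more than genes of its level in edgeR's test against the dispersion trend, where 0.253% of 9469 genes passed (24 genes, Benjamini-Hochberg adjusted p under 0.05). No factor had an unadjusted p under 0.05 either, the lowest being 0.0913 for Id3 (adjusted p = 0.907), while DESeq2's Cook's distance marked 0 of all genes in the fit and so has no bearing on the factors. Against counting noise alone 4 of 10 passed, beside 59.6% of all genes in the fit. They were Tcf7 (chi-square test on TMM-scaled counts of the edgeR fit, adjusted p = 6.8e-12), Id3 (1.67e-06), Satb1 (1.73e-06) and Zeb1 (0.00742). A count of 4 is no more than that background. Tcf7 passed under each alternative run, Id3 failed without replicate 2, Satb1 failed without replicate 1 and in a fit of the 10 factors with only those genes that have none opposite, and Zeb1 failed under 4 alternatives.

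The genes opposite the factors had more counts than the factors in 3 of the 5 pairs with shared exons, and they differed more between replicates. Gm43352, opposite Lef1 (chromosome 3, 131109026 to 131112090), had 1468, 2177 and 1566 counts. Per exon base it stood above Lef1 by 7.9, 19.3 and 14.1-fold in replicates 1, 2 and 3. Bach2os (chromosome 4, 32559680 to 32571708) had 1058, 1773 and 1191 counts, and 12.6, 34.4 and 29.3 times the level of Bach2 per exon base. Gm26577, opposite Myb (chromosome 10, 21145094 to 21154374), had 931, 1242 and 1171 counts, and 18.3, 51.3 and 38.9 times the level of Myb. In each of these pairs the ratio was smallest in replicate 1.

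The remaining pairs had weaker opposite genes. Gm6934, opposite Satb1 (chromosome 17, 51832819 to 51834723), had 91, 187 and 126 counts, and 0.311, 1.36 and 0.938 times the level of Satb1. Gm10125, opposite Zeb1 (chromosome 18, 5491503 to 5593505), had 9, 24 and 22 counts, and 0.025, 0.0962 and 0.107 times the level of Zeb1. A630014C17Rik, which spans the start of Tcf7 without sharing an exon base, had 38, 79 and 40 counts, or 0.033, 0.197 and 0.0772 of Tcf7 per exon base. Gm16147, a pseudogene of 373 bases opposite Zeb1 that shares no exon base with it, had 3, 19 and 6 counts, or 0.167, 1.52 and 0.583 of Zeb1. Counts here too were fewest in replicate 1, the library with the highest total. Over all 1469 pairs of a protein-coding gene and a noncoding gene with shared exon bases, the noncoding gene was the higher per base in 79.8%. A count of 3 in 5 is not above that share. These 1469 pairs had at least 30 counts summed over both genes and all libraries. Their median ratio of noncoding to coding per base, taken over all of them, was 8.53.

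The contrast between the strands lay in how the replicates compared. After TMM scaling Gm43352 was 2.71-fold higher in replicate 2 than in replicate 1 and 2.04-fold higher in replicate 3, while Lef1 was 1.11 and 1.14-fold higher. Bach2os was 3.06 and 2.15-fold higher, and Bach2 stood at 1.13 and 0.927 of its replicate 1 level. Gm26577 was 2.44 and 2.4-fold higher, with Myb at 0.869 and 1.13. Gm6934 was 3.75 and 2.64-fold higher, with Satb1 at 0.858 and 0.876. These folds hold for the TMM scale of all genes in the fit. In a fit of the factors with only genes that have none opposite, Lef1 and Bach2 also exceeded counting noise, while Satb1 no longer did. The opposite gene to factor ratio was lowest in replicate 1 in 5 of 5 pairs. Of these 4 have both genes in the edgeR fit, and the ratio was lowest in replicate 1 in 4 of those 4, as in 89.8% of all 920 such pairs. Of 871 noncoding genes in the fit that lie opposite a protein-coding gene in this way, 95.3% were lowest in replicate 1. This is a difference between replicates that most pairs of this kind showed, and its cause was not tested. None of the opposite genes passed edgeR's trend test, with adjusted p of 0.845 for Gm43352, 0.671 for Bach2os, 0.847 for Gm26577, 0.356 for Gm6934 and 0.561 for A630014C17Rik. Gm10125 had too few counts to be tested. Each of the tested genes exceeded counting noise, the largest adjusted p being 1.91e-11 for A630014C17Rik.

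**Figure D4:**
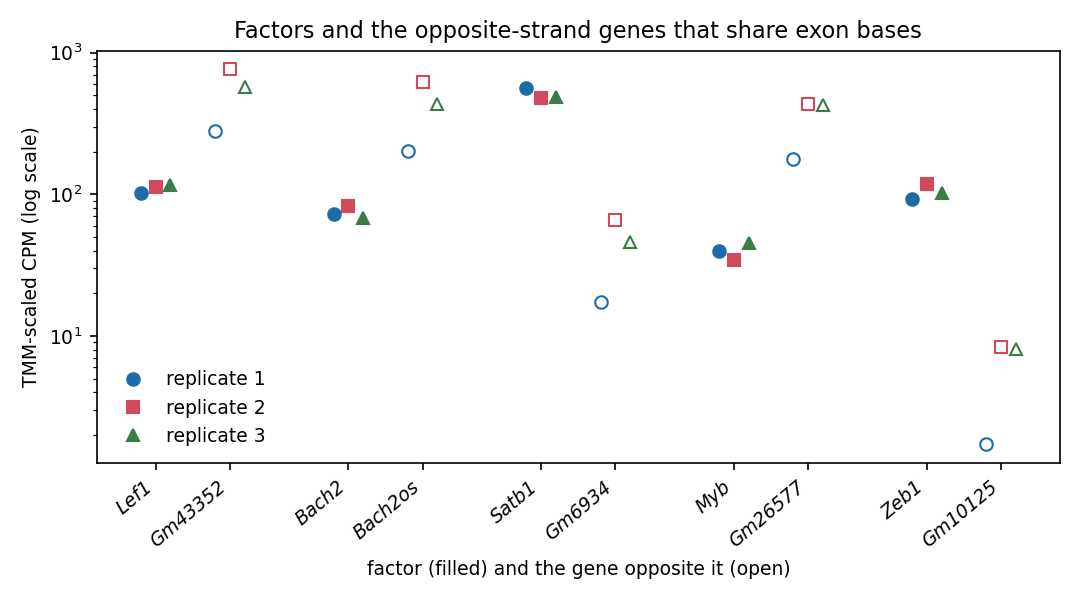
TMM-scaled CPM (log axis) of 5 factors (filled) and of the genes that share exon bases with them on the other strand (open), in replicates 1, 2 and 3. The open symbols of replicate 1 lie below those of replicates 2 and 3 for each opposite gene. On this scale the filled symbols of the factors lie close together.

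Most genes listed as partners of TCF1 and LEF1 reached 1 TPM at strand setting 1. Of 16 genes of the TCF/LEF and Wnt pathway list, 14 were at 1 TPM or more throughout, beside 38.7% of protein-coding genes. Among the 10 of the list with no exon under the other strand, 9 were. The median gene of the list had 7.82 ± 2.09 TPM (SD over 3 libraries). Ctnnb1, the gene of beta-catenin, was the highest at 67.2, 30.1 and 33.8 TPM, and has exons under exons of the other strand. Axin1, a scaffold of the complex that destroys beta-catenin, had 55.1, 32.7 and 36.0 TPM, and the kinase Csnk1a1 of the same complex 54.7, 29.0 and 25.3. The other TCF genes, Tcf7l1 at 7.03 ± 3.05 TPM and Tcf7l2 at 0.17 ± 0.148 TPM, lay below Tcf7. Tcf7l1 was chosen after its values were seen and has exons under exons of the other strand. Tcf7l2 and the corepressor gene Tle2 were the lowest, with 1, 2 and 5 and 3, 1 and 0 counts.

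The next list held other E, Id and basic helix-loop-helix factors together with E protein cofactors. Of its 13 genes 5 were at 1 TPM or more throughout, beside 38.7% of protein-coding genes, and 4 had no count. The median gene had 0.0997 ± 0.0687 TPM, and 2 of the 5, Ldb1 and Cbfa2t2, the latter named after its values were seen, are cofactor genes. Ldb1, an adaptor that bridges E protein complexes, had 95.9, 54.6 and 65.3 TPM, and Bhlhe40, a T cell factor, 9.42, 4.19 and 5.26, both with exons under exons of the other strand. Lyl1, a blood progenitor factor also so placed, had 1.52, 2.37 and 3.27. Id1, another Id gene, and Tcf4, the other E protein gene, were named after their values were seen. Id1 had 8, 4 and 2 counts. Tcf4 had 9, 11 and 1, or 0.129 ± 0.0981 TPM, against 4.95 ± 1.68 TPM for Tcf12. Tal1 and Id4 had no count, so their floor is the limit of 3 counts given above.

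Of 9 relatives, partners and targets of BACH2, 6 were at 1 TPM or more throughout, beside 38.7% of protein-coding genes. The median gene had 17.4 ± 5.95 TPM. The small Maf gene Maff led at 58.9, 34.0 and 37.0 TPM, before Nfe2l1 at 36.4, 21.3 and 27.8 and Mafk at 40.4, 15.6 and 26.9. Maf, at 19, 5 and 6 counts, and Hmox1, at 1, 0 and 2, were the lowest. Of 12 relatives and cofactors of SATB1, ZEB1 and MYB, 7 reached 1 TPM, beside the same 38.7%, with a median of 11.5 ± 2.34 TPM. The deacetylase gene Hdac1 led at 80.5, 45.8 and 53.0 TPM, before the corepressor gene Ctbp1 at 53.2, 23.1 and 31.6 and Hdac2 at 44.4, 22.3 and 29.6. Mybl1 had 1, 0 and 0 counts.

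By the mean of the per-library medians the factors, at 16.8 ± 4.50 TPM, lay between the other naive and memory genes and the effector genes. All 14 naive and memory genes other than the factors reached 1 TPM, the median gene at 24.5 ± 10.9 TPM. Of 16 effector genes, 5 did, with a median of 0.836 ± 0.308 TPM, or 0.562 over the 12 with no exon under the other strand. Among protein-coding genes 38.7% did, with a median of mean levels of 0.297 TPM, so the effector count is near that background. Prdm1, the effector regulator that BACH2 represses, named after its values were seen, had 13, 3 and 6 counts. This was 0.662 ± 0.39 TPM, against 13.7 ± 3.41 TPM for Bach2, and a link between the 2 levels was not tested. Il12rb2 led the effector list at 9.51, 16.4 and 9.63 TPM and has exons under exons of the other strand, while Gzmb and Klrg1 had no count. No gene of the 6 related lists passed edgeR's trend test, where 0.253% of all genes did.

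**Figure D5:**
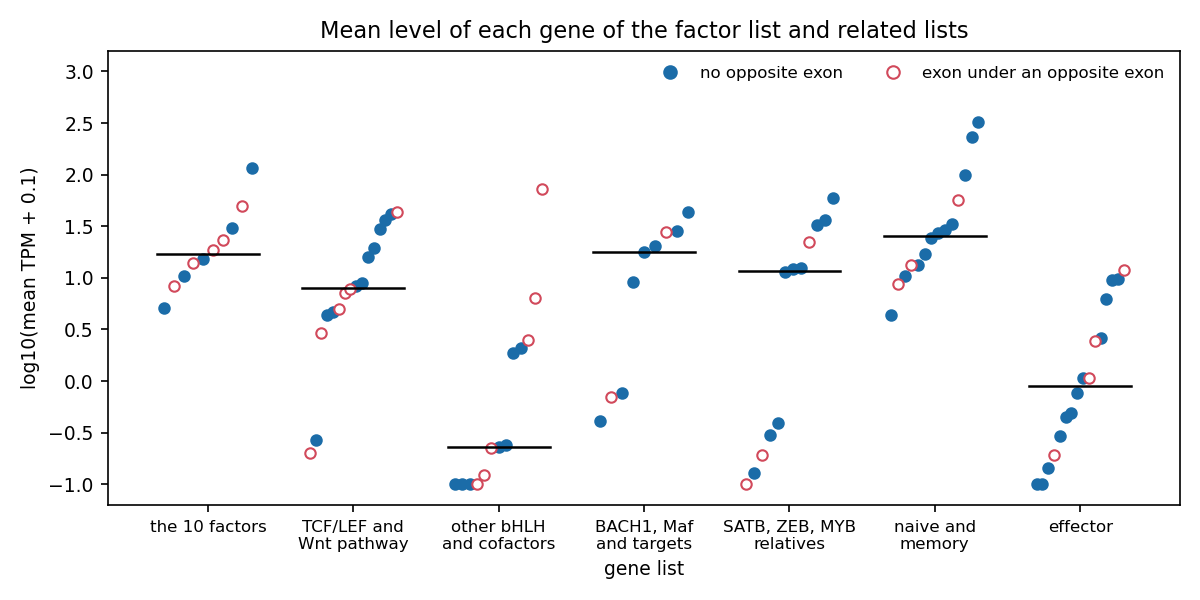
Mean level over the 3 libraries, as log10(TPM + 0.1), of each gene of the factor list and the 6 related lists, ordered by level within a list, with the median as a line. The 10 factors and the naive and memory genes lie wholly above the medians of the effector lists and of the list of helix-loop-helix factors and cofactors, and open symbols mark genes with exons under exons of the other strand.

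The cell type label was checked against markers. The list for T cells holds genes common to CD4 T cells and none that mark Th1 cells. All 14 markers of alpha-beta CD4 T cells reached 1 TPM, beside 38.7% of protein-coding genes. Trac led at 897 ± 467 TPM and Cd3e was lowest at 51.4 ± 17.8. Among lists of cells that also use these factors, B cells are known for Bach2, and of 10 B cell markers 2 reached 1 TPM and 5 had no count. Their summed level was 53.7, 58.7 and 47.5 TPM, most of it Cd79a at 36.4 ± 11.1, with Pax5 at 0. Innate lymphoid cells are known for Id2, and of 8 such markers 1, Tyrobp, reached 1 TPM, 4 were at 0 and the sum was 2.89, 10.4 and 13.7 TPM. Progenitors are known for Myb, and of 7 markers 1, Dntt at 2.58 ± 0.577 TPM, reached 1 TPM and 5 were at 0. Of 10 myeloid markers 2 did, led by Csf1r at 158 ± 25.3 TPM, which has exons under exons of the other strand, and of 7 dendritic markers 2 did, led by Cd74 at 6.16 ± 0.108. Ifng, Cxcr3 and Tbx21, known for Th1 cells, from the effector list and named after their values were seen, were low. Ifng, the interferon-gamma gene, had 1, 2 and 0 counts, the chemokine receptor gene Cxcr3 6, 2 and 2, and Tbx21, the gene of the Th1 factor T-bet, 19, 7 and 11, or 2.53 ± 0.997 TPM. Besides Tbx21, the genes of that list at 1 TPM or more throughout were Il12rb2, Prf1, Cxcr6 and Runx3, also named after their values were seen. Il12rb2 had 9.51, 16.4 and 9.63 TPM, Prf1 13.8, 5.57 and 8.66, Cxcr6 4.73, 16.0 and 8.24, and Runx3 8.13, 4.05 and 6.12. Cd8b1 had 6.73 ± 3.36 TPM and Cd8a 0.133 ± 0.126. Whether other cells contribute to the levels of the factors was not tested.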

How the data were processed

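RNA was measured in 3 libraries of Th1 cells. Per the file headers, read pairs from an alignment named star2 were counted over exons of GENCODE vM13 with featureCounts 1.4.6-p4, both reads aligned, strand setting 1, without pooling or normalization. A protocol named for poly(A)+ RNA is linked in the labels, although the assay is titled total RNA-seq. The values the authors deposited are whole-number counts, and another deposited column gives the exon length in bases; the assembly is mm10 per the labels. TPM and CPM were computed here from those counts. Symbols came from GENCODE M21 by gene identifier without version, which named 50376 of 50600 genes, and 1 list gene from RefSeq synonyms. Overlaps were computed from the coordinates in the files with bedtools 2.31.1. Intervals are exact 95% intervals for counting error only.

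Spread was tested in edgeR 4.0.16 (R 4.3.3) with TMM, an intercept-only design and filterByExpr at 10 counts, which kept 9469 genes: the deviance at the trended dispersion against chi-square with 2 degrees of freedom, one-sided, adjusted by Benjamini-Hochberg at 0.05. A chi-square test on the same scaled counts tested counting noise. DESeq2 1.42.0 was the other tool. Ratios add 0.5 to each count and use the exact two-sided sign-flip test over libraries. The factors and lists were chosen with earlier results of these data known. The text names all factors and the genes opposite them, the genes of the paired ratios, up to 3 highest and 2 lowest genes of a pathway list, and the highest and lowest of a marker list; others are said to be chosen after their values were seen. The alternatives were other scalings, filters, added counts, no length correction, only genes with none opposite, and leaving out each replicate. Some items are not reported here.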

Additional observations from a re-analysis of the deposited data

How the results depend on the processing

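All 10 factors stayed at 1 TPM in every library, and 0 passed the dispersion trend, under each alternative that marked any gene. Of 60 recomputed levels of single factors 43 stayed within 1 SD and 17 moved, 10 of them on leaving genes with exons under the other strand out of the total and 7 on dropping the length. Leaving out a replicate could not move a level by this rule, because the mean of the remaining values always lies within 1 SD. Dropping the length changes the unit from TPM to CPM, so those comparisons do not show stability either. The count of genes beyond the trend, 24, was 44 without a filter, 55 in a fit of only genes with none opposite plus the factors, 6 with total counts (added after seeing the data), 0 by DESeq2's Cook's distance, which marked no gene at all and so has no bearing on the factors, and 3 to 21 on leaving out 1 library (3 without replicate 2, 8 without replicate 3). The factors beyond counting noise, 4, were 2 to 4 on leaving out 1 library, with 2 without replicate 1 and 2 without replicate 2, and all genes, 5642, were 2476 to 4816. In a fit of the factors with the genes that have none opposite, an alternative added after seeing the data, 5 factors passed, and 1544 of all 4323 genes tested. The 5 were Bach2, Id3, Lef1, Tcf7 and Zeb1. Without length correction the mean log2 ratio turned to -0.87 for Tcf3 to Tcf12, 0.76 for both E protein genes to both Id genes, 0.17 for Bach2 to Bach1, -1.68 for Tcf7 to Satb1, -2.02 for Id3 to Lef1, -2.85 for Id2 to Bach2, -0.81 for Tcf3 to Myb and -0.058 for Myb to Tcf12. Here the alternative's own construction, no division by exon length, is the difference. Id2 to Bach2 ranged from -0.022 (without replicate 3) to 0.36 on leaving out 1 library. Without genes that have exons under the other strand, the TCF/LEF list had 9 genes at 1 TPM in place of 14 and the list of E, Id and helix-loop-helix factors 2 in place of 5, since fewer genes remain. The other 129 values kept their direction or, for counts, stayed within 1.5 times. No paired analysis was possible because there is 1 group. Depth limits Id2 most, with 23 counts in replicate 2.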
